A study of Mus musculus with 21 samples.

Results

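The mRNA of 7 genes that write, guide or remove DNA methylation was followed in mouse lymphoid progenitors (LPs), together with the binding sites of the transcription factor Zbtb1 and the corepressor Cbfa2t3 at these genes. The genes are the DNA methyltransferases Dnmt1, Dnmt3a and Dnmt3b, their guide protein Uhrf1, and the dioxygenases Tet1, Tet2 and Tet3. They were picked by symbol from the 55421 genes of the expression table, and their peaks were those for which a deposited list names 1 of the 7 as the nearest gene. All 7 were among the 11554 genes tested, which had a mean above 1 CPM (reads scaled to the same total in every library).

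The cells were a single Ebf1-deficient LP line of strain C57BL6/J, grown on OP9 stromal cells with SCF, IL-7 and Flt3L, and all conditions carried Cas9-GFP. A retrovirus with an hNGFR marker delivered a pool of 2 sgRNAs. In sgControl these targeted luciferase, and sgLmo2, sgZbtb1, sgCbfa2t2 and sgCbfa2t3 are named after the gene they targeted. Cells positive for both markers were sorted 5 days later, and each of the 5 conditions had 3 biological replicates for QuantSeq, which reads each mRNA near its 3′ end. ChIP-seq for Zbtb1 and for Cbfa2t3, each with 2 replicates, was done in Ebf1-deficient LPs, and no cells received Notch stimulation. The edited cells were sorted pools of 1 line, so p-values measure the spread between cultures of that line.

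DNA methylation is the addition of a methyl group to cytosine, in mammals mostly where guanine follows. Dnmt3a and Dnmt3b place new methyl groups, whereas Dnmt1 copies the existing pattern onto the strand made at replication and is brought to hemimethylated sites by Uhrf1. Tet enzymes oxidise the methyl group with 2-oxoglutarate as co-substrate, and Tdg and base excision repair can then restore plain cytosine. In blood, DNMT3A and TET2 are known as genes whose mutations expand stem cell clones.

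The 15 libraries held 1705416 to 2095447 reads, so that 3 reads, taken as the lowest measurable amount, were worth 1.43 to 1.76 CPM by counting error alone. All 12 markers of lymphoid progenitors were above 0 and summed to 1692 to 2023 CPM, whereas 10 stromal markers summed to 0 to 8.80 CPM with Col3a1, Lum and Dcn at 0 in every library. Of 9 myeloid markers Elane, S100a8 and S100a9 were at 0 in every library, and the other 6 brought the sum to 65.21 to 99.52 CPM. Of 8 B cell markers Cd79a and Ms4a1 were at 0 in every library, and of 9 T cell markers Cd8a. Ebf1 mRNA was present in the line labelled Ebf1-deficient, at 336 ± 30.5 CPM (SD, n = 3) in sgControl. Zbtb1 mRNA was 1.70-fold higher in sgZbtb1 (limma adjusted p = 0.00102) and Cbfa2t3 mRNA 1.84-fold higher in sgCbfa2t3 (limma adjusted p = 1.67e-07). Cbfa2t2 mRNA was 1.76-fold that of sgControl in sgCbfa2t2, with all 3 libraries above it (limma adjusted p = 0.412), and Lmo2 mRNA 0.834-fold in sgLmo2 with overlapping libraries (adjusted p = 0.957), and neither passed. An edit can disrupt a protein without lowering its mRNA, so these levels do not check the labels. The study probed Lmo2, Zbtb1 and Cbfa2t3 protein on immunoblots, which were not analysed here, and its methods name no antibody against Cbfa2t2. Each condition name below stands for the libraries labelled with that sgRNA.

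All 7 genes had reads in every library, and by their means the methyltransferases and Uhrf1 stood above the Tet genes. QuantSeq gives reads from the end of each transcript, so the CPM of different genes were set side by side without division by length. Dnmt1 had the highest mean, at 248 ± 17.1 CPM (SD, n = 15), and 94.3% of the genes tested were lower. Dnmt3a followed at 225 ± 19.9 CPM, with Dnmt1 above it in 11 of 15 libraries. Uhrf1, at 149 ± 9.53 CPM, and Dnmt3b, at 142 ± 18.4 CPM, lay close together, with Uhrf1 higher in 9 of 15 libraries. Tet3 came next at 113 ± 16.2 CPM, with Dnmt3b above it in 12 of 15 libraries. It stood 4.90-fold above Tet2 by the means and above it in 15 of 15 libraries, and it took 72.4% ± 5.93 (SD, n = 15) of the reads of the 3 Tet genes. Tet2 and Tet1 were the lowest, at 23.0 ± 5.73 and 19.9 ± 6.07 CPM, with Tet2 the higher in 12 of 15 libraries. The germ cell cofactor Dnmt3l had no read in any library.

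**Figure D1:**
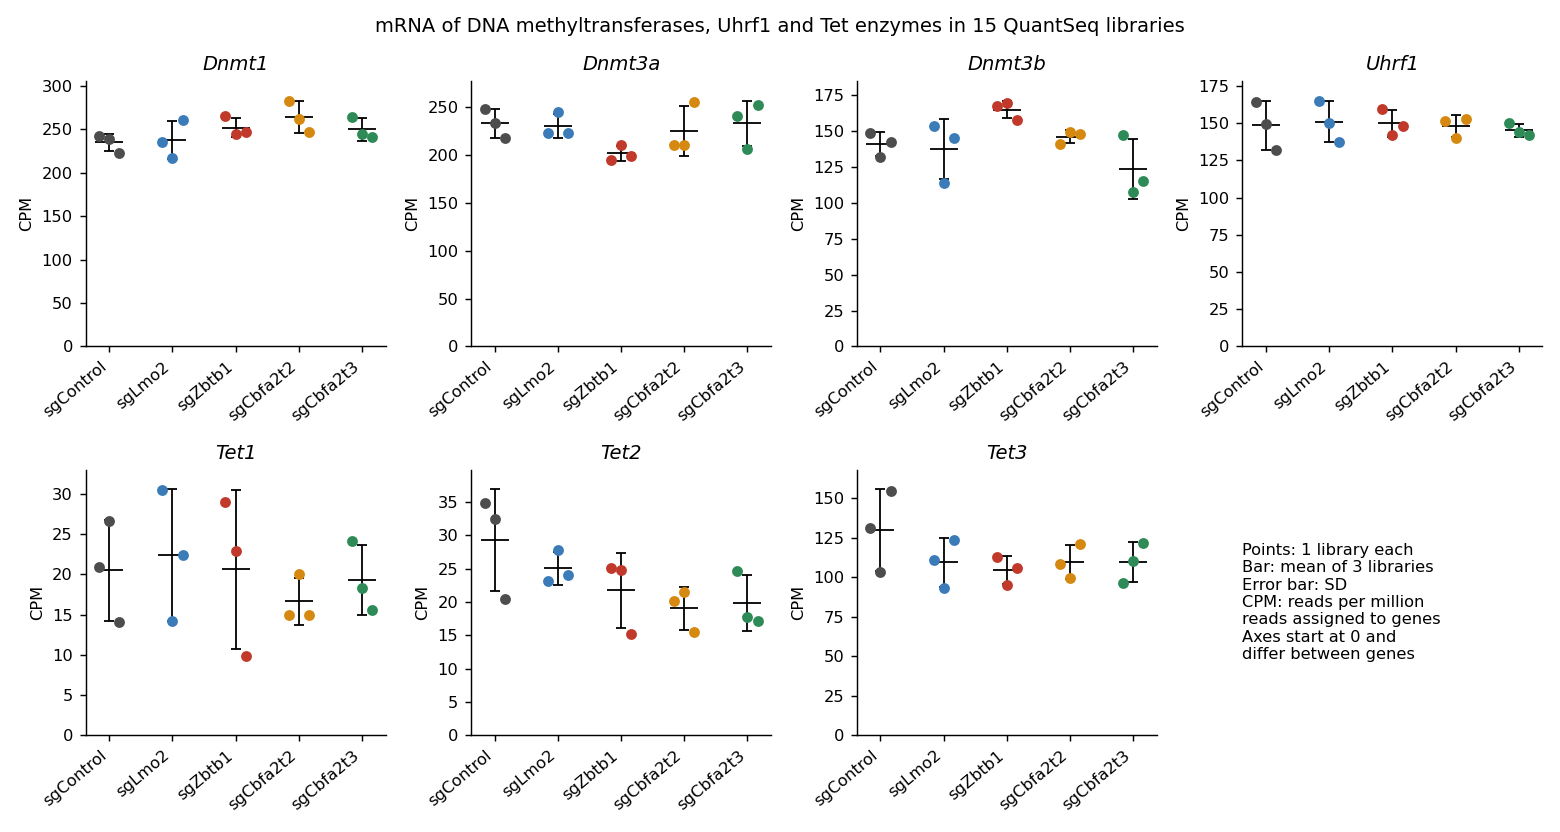
CPM of the 7 genes (vertical axes, each from 0) in the 15 QuantSeq libraries, with a point per library, a bar for the mean of 3 libraries and an error bar for the SD. Points of sgZbtb1 lie wholly above those of sgControl for Dnmt1 and Dnmt3b and wholly below them for Dnmt3a, whereas for Uhrf1 and the Tet genes every condition overlaps sgControl.

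None of the 7 genes passed the test in any comparison with sgControl. With limma on log2(CPM + 1) and Benjamini-Hochberg adjustment over all 11554 genes, 0 of 7 had an adjusted p under 0.05 in sgZbtb1, where 4.79% of all genes did. The count was likewise 0 of 7 in sgLmo2, sgCbfa2t2 and sgCbfa2t3, where 0.0173%, 0.147% and 0.537% of all genes passed. By edgeR it was 0 of 7 in each comparison, and by DESeq2 it was 0 as well, although DESeq2 gave no adjusted p for Tet1 and Tet2 in sgCbfa2t2 and sgCbfa2t3. At an unadjusted p under 0.05, limma gave 1 of 7 in sgZbtb1 (Tet3, beside 17.6% of all genes), 1 of 7 in sgCbfa2t2 (Tet2, beside 9.56%) and 0 of 7 in sgLmo2 and sgCbfa2t3 (beside 5.65% and 10.6%). A test over the 5 conditions together (limma moderated F) called 0 of 7 and 4.54% of all genes, with Dnmt3b the lowest of the 7 (adjusted p = 0.175) and 1 of 7 at an unadjusted p under 0.05, beside 16.7% of all genes.

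The 3 libraries of a condition lay wholly above or below those of sgControl for 3 of 7 genes in sgZbtb1, where this held for 22.9% of all genes. It held for 1 of 7 in sgCbfa2t2 (13.7% of all genes) and for 0 of 7 in sgLmo2 and sgCbfa2t3 (10.6% and 15.8%). The median log2 fold change of the 7 was -0.02, -0.08, -0.05 and -0.06 in sgLmo2, sgZbtb1, sgCbfa2t2 and sgCbfa2t3, and that of all genes tested 0.01, -0.03, 0.0049 and -0.01. The 4 comparisons share their sgControl libraries and are therefore not independent of each other.

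**Figure D2:**
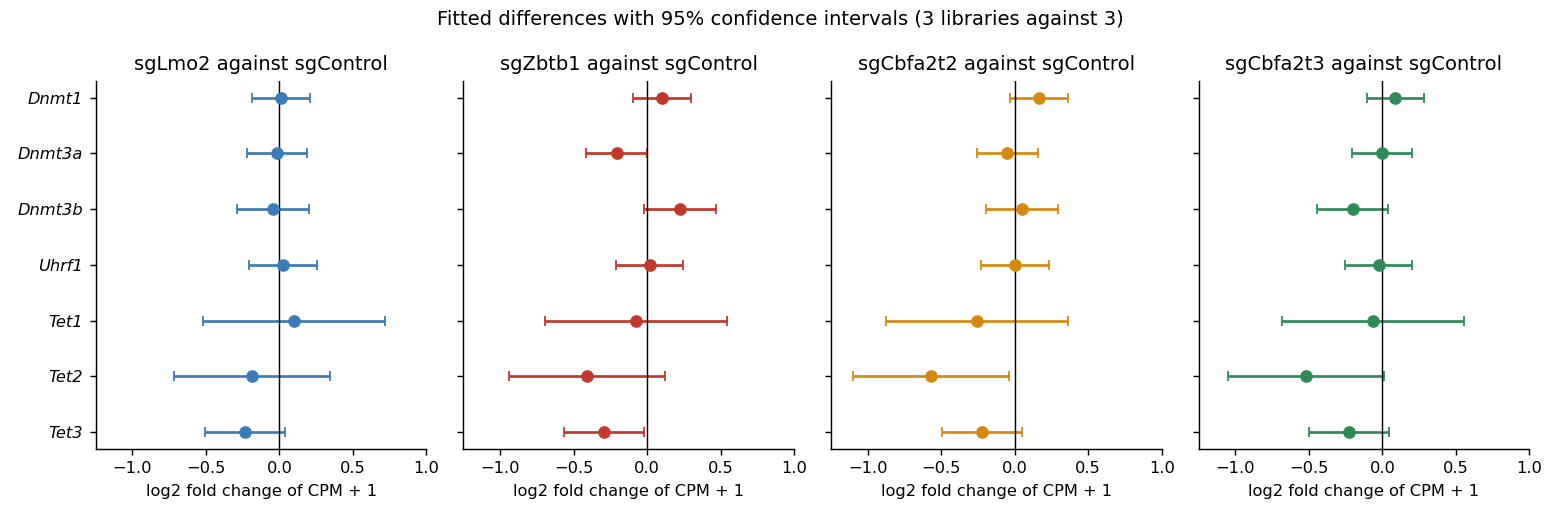
Log2 fold change of CPM + 1 against sgControl (horizontal axis) for the 7 genes in the 4 comparisons, as points with 95% confidence intervals from limma. Values lie between -0.57 and 0.22, and all intervals include 0 except those of Tet2 in sgCbfa2t2 and Tet3 in sgZbtb1, which do not pass after adjustment.

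The 95% intervals of the differences from sgControl, not adjusted for the number of genes, differed in width between the genes. To each side of the estimate they reached 0.20 on the log2 scale for Dnmt1, 0.21 for Dnmt3a, 0.23 for Uhrf1, 0.24 for Dnmt3b and 0.27 for Tet3. For the less abundant Tet2 and Tet1 they reached 0.53 and 0.62, corresponding to 1.44-fold and 1.54-fold. The SD between replicates was 6.30% of the mean for Dnmt1 and 34.2% for Tet1, where counting alone would give 4.64% and 16.2%.

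Dnmt1 (ENSMUSG00000004099, chr9:20907209-20959888 in mm10, minus strand) maintains methylation through cell division. Its 3 libraries held 243, 239 and 223 CPM in sgControl, 265, 245 and 246 CPM in sgZbtb1, and 283, 262 and 247 CPM in sgCbfa2t2. In sgCbfa2t3 they held 265, 244 and 241 CPM and in sgLmo2 235, 217 and 261 CPM. Thus all sgZbtb1 and sgCbfa2t2 libraries lay above all sgControl libraries, and the others overlapped. The difference was 1.12-fold in sgCbfa2t2 (95% interval 0.979 to 1.28, limma adjusted p = 0.635) and 1.07-fold in sgZbtb1 (0.936 to 1.23, adjusted p = 0.645). From high to low the means ran sgCbfa2t2, sgZbtb1, sgCbfa2t3, sgLmo2 and sgControl, with no neighbours apart beyond their spread. No peak of either factor was listed for Dnmt1.

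Uhrf1 (ENSMUSG00000001228, chr17:56303321-56323486, plus strand), which reads hemimethylated DNA and brings in Dnmt1, varied least between conditions by the ratio of the highest to the lowest condition mean, 1.04. Its sgControl libraries held 164, 149 and 132 CPM, nearly the whole range of the 15 libraries from 132 to 165 CPM. Condition means lay between 145 ± 4.33 CPM in sgCbfa2t3 and 151 ± 13.8 CPM in sgLmo2 (SD, n = 3), and all conditions overlapped. The log2 differences from sgControl ran from -0.03 to 0.02 (limma adjusted p = 0.962 to 0.999). Uhrf2, its paralogue, was at a mean of 35.8 CPM over the 15 libraries and did not pass either (lowest limma adjusted p = 0.624).

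ChIP peaks were assigned to 4 of the 7 genes in the Zbtb1 list and to 1 of 7 in the Cbfa2t3 list. Of all genes tested, 26.8% had a Zbtb1 peak and 20.5% a Cbfa2t3 peak. The lists hold 5898 and 6077 peaks, each with a normalised score (medians 28.0 and 33.2), and carry no error since replicates were combined. With a score of at least 30 the counts were 3 of 7 (14.3% of all genes) for Zbtb1 and 0 of 7 (12.8%) for Cbfa2t3, and within 10 kb of the gene start they were 4 of 7 (21.8%) and 1 of 7 (12.6%). Zbtb1 peaks were listed for Dnmt3a, Tet1, Tet3 and Uhrf1, Cbfa2t3 peaks for Dnmt3a, and none for Dnmt1, Dnmt3b or Tet2. Letters were searched on both strands in the 200 bases at each peak's centre, and a match describes the sequence only.

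**Figure D3:**
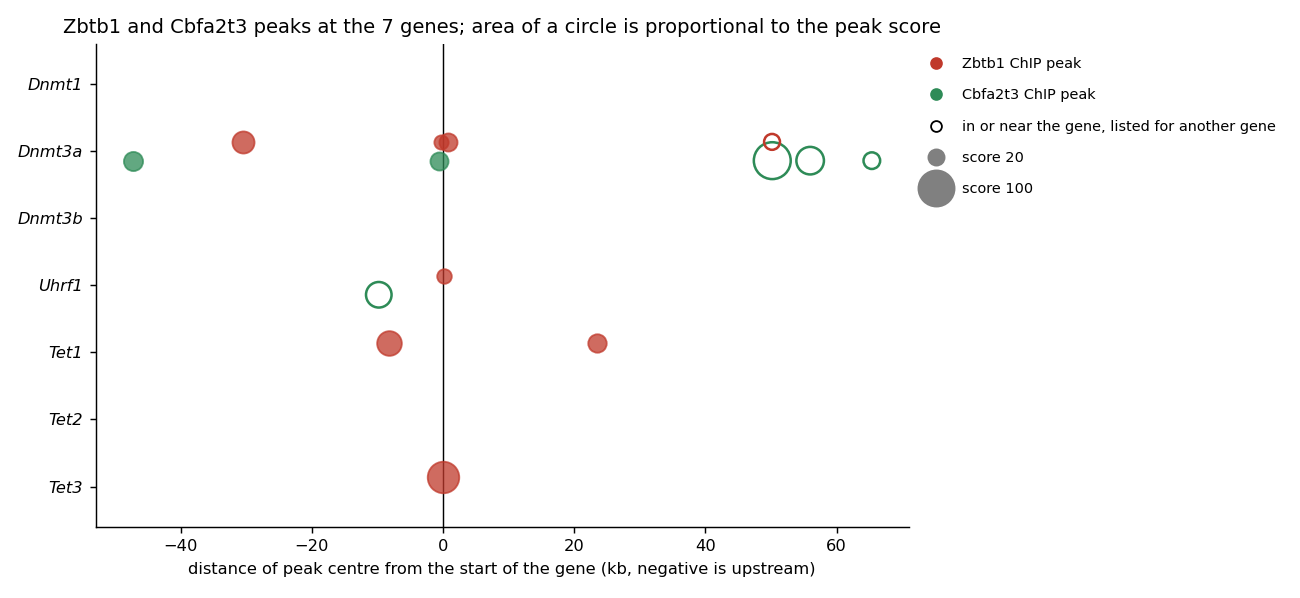
Peaks at the 7 genes by distance of the peak centre from the start of the gene (horizontal axis, kb, negative upstream), with Zbtb1 peaks in red, Cbfa2t3 peaks in green and circle area proportional to the score. Open circles are peaks inside or near a gene that the lists give to another gene, and the largest of them lies about 50 kb into Dnmt3a while Dnmt1, Dnmt3b and Tet2 have none. Filled circles are placed from the start used by the list and open circles from the GENCODE vM21 start.

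The Zbtb1 peak at Uhrf1 (chr17:56304229-56304599, score 16.4) was centred 101 bp downstream of the start used by the list, in a CpG island, and 8.44% of the Zbtb1 list had a lower score. The nearest Cbfa2t3 peak (chr17:56293337-56293715, score 50.1) was listed for Plin3, a lipid droplet gene, and lay at -9795 bp from the Uhrf1 start of GENCODE vM21.

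Dnmt3a (ENSMUSG00000020661, chr12:3806007-3914443, plus strand), the more abundant de novo enzyme here, had its lowest mean in sgZbtb1. Its 3 libraries held 249, 234 and 218 CPM in sgControl and 196, 211 and 199 CPM in sgZbtb1, so that all sgZbtb1 libraries lay below all sgControl libraries. In sgLmo2 they held 223, 245 and 223 CPM, in sgCbfa2t2 210, 211 and 256 CPM, and in sgCbfa2t3 241, 207 and 252 CPM, all overlapping sgControl. The sgZbtb1 level was 0.867-fold that of sgControl, a log2 difference of -0.21 (95% interval -0.41 to 0.0005, SE 0.10), which did not pass (limma adjusted p = 0.286). An exact two-sided permutation test gave 0.1, the smallest p that 3 libraries against 3 allow. The other comparisons with sgControl had adjusted p of 0.929 to 0.997.

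Dnmt3a was the single gene of the 7 with peaks of both factors listed for it, 3 of Zbtb1 and 2 of Cbfa2t3. The highest scored of the Zbtb1 peaks (chr12:3776334-3776704, score 37.4) lay at -30461 bp from the start, in an intron of the neighbouring gene Dtnb and within a SINE repeat. It is shown because its centre holds 3 copies of TGTGGT, the Runx core, which in capitals read as ACCACA on the plus strand given here (GRCm38, chr12:3776420-3776619). At least 1 copy was found in 41.3% of Zbtb1 peak centres, and 3 copies is the 95th percentile.

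Dnmt3a upstream, Zbtb1 peak: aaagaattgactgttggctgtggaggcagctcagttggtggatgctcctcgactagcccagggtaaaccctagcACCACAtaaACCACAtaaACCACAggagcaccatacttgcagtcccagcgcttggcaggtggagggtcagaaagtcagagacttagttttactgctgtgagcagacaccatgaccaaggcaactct

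At the Dnmt3a start, a Zbtb1 peak (chr12:3806424-3806794, score 15.6) and a Cbfa2t3 peak (chr12:3806152-3806530, score 25.1) shared 107 bp, with centres 268 bp apart. Of the 7 Zbtb1 peaks listed for these genes, 1 thus overlapped a Cbfa2t3 peak, as did 25.2% of all Zbtb1 peaks. Another overlap inside Dnmt3a, between peaks listed for Dnmt3aos, is given below. The Zbtb1 score was near the lower limit of its list, with 3.42% of peaks below it. The shared bases outside exons are shown since both factors were found there, with CG dinucleotides in capitals (plus strand, chr12:3806424-3806497, 74 bases). These 74 bases hold 9 CG and no CANNTG, the E-box, whereas the full centres of the Cbfa2t3 and the Zbtb1 peak, of 200 bases each, hold 1 and 2. At least 1 CANNTG was found in 89.3% of Cbfa2t3 and 53.6% of Zbtb1 peak centres.

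Dnmt3a promoter, bases in both peaks: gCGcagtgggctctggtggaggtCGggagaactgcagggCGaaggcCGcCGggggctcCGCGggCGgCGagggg

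A further Zbtb1 peak (chr12:3807751-3808121, score 25.1) was centred 776 bp downstream of the start, in intron 1. Its centre is shown for its base composition, 79.0% G and C, with CG and the letters TGGTGGT in capitals (plus strand, chr12:3807837-3808036). It holds 26 CG, where the median Zbtb1 peak centre holds 8, and 1 TGGTGGT, which 15.8% of Zbtb1 peak centres contain.

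Dnmt3a intron, Zbtb1 peak: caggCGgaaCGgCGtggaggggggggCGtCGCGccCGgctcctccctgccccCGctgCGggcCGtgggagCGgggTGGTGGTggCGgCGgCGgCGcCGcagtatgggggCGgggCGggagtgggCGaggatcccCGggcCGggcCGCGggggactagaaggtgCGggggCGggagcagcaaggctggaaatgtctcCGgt

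Peaks inside Dnmt3a were also listed for Dnmt3aos, a gene antisense to it. The strongest of these, a Cbfa2t3 peak (chr12:3856008-3856386, score 104.3) centred 50190 bp into Dnmt3a, shared 339 bp with a Zbtb1 peak of score 19.3 whose centre was 36 bp away. Other Cbfa2t3 peaks listed for Dnmt3aos lay 55966 and 65368 bp into Dnmt3a, with scores of 58.2 and 21.2. Distances into Dnmt3a are counted from its GENCODE vM21 start. The centre of the strongest is shown because both factors had a peak there, with its 1 TGTGGT in capitals (plus strand, chr12:3856098-3856297). TGTGGT was found in 43.7% of Cbfa2t3 peak centres. CANNTG was not found in this centre, whereas 89.3% of Cbfa2t3 peak centres held it.

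Dnmt3a gene body, Cbfa2t3 and Zbtb1 peaks: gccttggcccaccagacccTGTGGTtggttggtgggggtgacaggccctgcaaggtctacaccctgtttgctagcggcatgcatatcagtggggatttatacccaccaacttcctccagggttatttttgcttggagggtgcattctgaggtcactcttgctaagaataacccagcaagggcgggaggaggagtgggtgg

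Dnmt3b (ENSMUSG00000027478, chr2:153649450-153687730, plus strand), the other de novo enzyme, had its highest mean in sgZbtb1 and its lowest in sgCbfa2t3. Its 3 libraries held 149, 132 and 142 CPM in sgControl, 167, 169 and 158 CPM in sgZbtb1, and 147, 107 and 115 CPM in sgCbfa2t3. In sgLmo2 they held 153, 113 and 145 CPM and in sgCbfa2t2 141, 149 and 148 CPM. The sgZbtb1 libraries lay above those of every other condition. Against sgControl this was 1.17-fold, a log2 difference of 0.22 (95% interval -0.02 to 0.47, SE 0.12), and did not pass (limma adjusted p = 0.341). In sgCbfa2t3 the log2 difference from sgControl was -0.20 (limma adjusted p = 0.588), and its libraries overlapped sgControl.

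The difference nearest to passing among all 70 comparisons between conditions for the 7 genes was that of Dnmt3b between sgCbfa2t3 and sgZbtb1. Dnmt3b was at 0.743-fold in sgCbfa2t3 relative to sgZbtb1, a log2 difference of -0.43 (95% interval -0.67 to -0.18), with a limma adjusted p of 0.066. In that comparison 1.13% of all genes passed the adjusted test, and the ranges of 14.6% of all genes did not overlap. Dnmt3b in sgZbtb1 was also 1.21-fold above sgLmo2 (log2 difference 0.27, limma adjusted p = 0.218). In the order of the means, sgZbtb1, sgCbfa2t2, sgControl, sgLmo2 and sgCbfa2t3, no neighbours passed (limma adjusted p = 0.601 to 0.985).

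Since Dnmt3a and Dnmt3b lay on opposite sides of sgControl in sgZbtb1, their ratio was computed for each library after these values had been seen, and is given as a description without a test. Dnmt3b reads per Dnmt3a read were 0.598, 0.564 and 0.652 in sgControl and 0.854, 0.803 and 0.791 in sgZbtb1. They were 0.686, 0.463 and 0.651 in sgLmo2, 0.668, 0.706 and 0.577 in sgCbfa2t2, and 0.609, 0.519 and 0.457 in sgCbfa2t3. All sgZbtb1 libraries were thus above the other 12. The sum of the 3 methyltransferases was similar throughout, at 609 ± 28.8 CPM in sgControl and 619 ± 13.3 CPM in sgZbtb1 (SD, n = 3), and ranged from 558 to 653 CPM over all libraries.

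**Figure D4:**
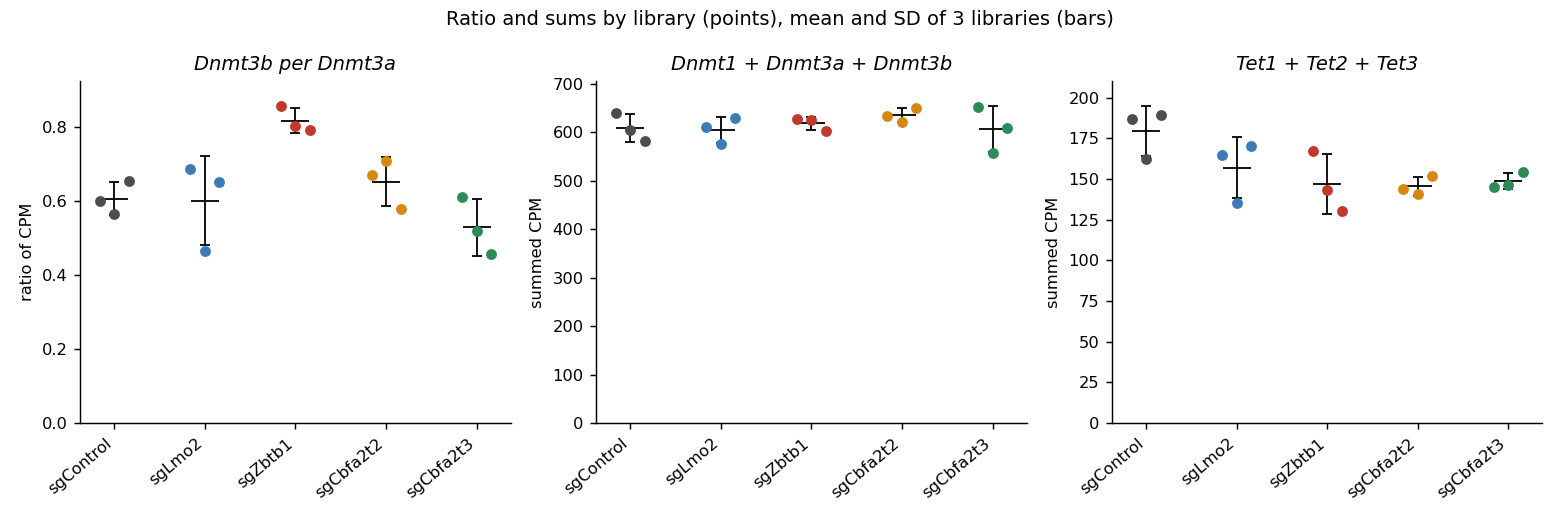
Dnmt3b CPM per Dnmt3a CPM (left), summed CPM of Dnmt1, Dnmt3a and Dnmt3b (middle) and summed CPM of Tet1, Tet2 and Tet3 (right) by library, with bars for the mean and SD of 3 libraries and axes from 0. The ratio in the sgZbtb1 libraries lies between 0.791 and 0.854, above all others, and the Tet sum is highest in sgControl with ranges that overlap in sgLmo2 and sgZbtb1.

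Of the Tet genes, Tet3 (ENSMUSG00000034832, chr6:83362373-83459084, minus strand) had its highest mean in sgControl. Its libraries held 131, 103 and 155 CPM in sgControl, a wide spread, and 113, 95.2 and 106 CPM in sgZbtb1. In sgLmo2 they held 111, 93.4 and 124 CPM, in sgCbfa2t2 109, 99.3 and 121 CPM, and in sgCbfa2t3 96.5, 110.2 and 122 CPM. Every condition overlapped sgControl, whose replicate 2 was at the level of the others. The log2 differences were between -0.29 in sgZbtb1 (95% interval -0.57 to -0.02, limma adjusted p = 0.241) and -0.22 in sgCbfa2t2 (limma adjusted p = 0.644). They depended on single sgControl libraries, and were -0.16 and -0.09 without sgControl replicate 3 and -0.45 and -0.38 without sgControl replicate 2, none of which passed. The other 4 conditions differed little among themselves, with means of 104.5 to 109.7 CPM.

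Tet3 carried the strongest of the Zbtb1 peaks listed for the 7 genes (chr6:83456161-83456531, score 76.4), centred 46 bp downstream of the start used by the list, and 86.8% of Zbtb1 peaks scored lower. The bases of this peak outside exons are shown as the most strongly scored site, with CG and GGAA, the Ets core, in capitals (plus strand, chr6:83456393-83456531, 139 bases). They hold 18 CG and 2 GGAA side by side. GGAA was found in 81.1% of Zbtb1 peak centres, and TGTGGT was not found here.

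Tet3 start, Zbtb1 peak: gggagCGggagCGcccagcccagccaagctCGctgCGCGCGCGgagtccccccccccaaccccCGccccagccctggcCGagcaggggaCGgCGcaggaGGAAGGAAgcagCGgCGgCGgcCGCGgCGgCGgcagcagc

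Tet2 (ENSMUSG00000040943, chr3:133463679-133545139, minus strand), the Tet gene best known from blood stem cells, had the largest differences of the 7 on the log2 scale and also a large error. Its libraries held 34.8, 32.4 and 20.5 CPM in sgControl, 20.2, 21.5 and 15.5 CPM in sgCbfa2t2, and 24.7, 17.7 and 17.2 CPM in sgCbfa2t3. In sgZbtb1 they held 25.1, 24.9 and 15.2 CPM and in sgLmo2 23.2, 27.9 and 24.1 CPM. Both higher sgControl libraries exceeded all other libraries, whereas sgControl replicate 3 lay among them, so that every condition overlapped sgControl. The log2 difference was -0.57 in sgCbfa2t2 (95% interval -1.10 to -0.04, limma adjusted p = 0.482) and -0.52 in sgCbfa2t3 (-1.05 to 0.01, limma adjusted p = 0.483). No peak of either factor was listed for Tet2.

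Tet1 (ENSMUSG00000047146, chr10:62804570-62908996, minus strand), with 20 to 54 reads a library, spread widely within conditions. Its libraries held 20.9, 26.6 and 14.1 CPM in sgControl, 30.5, 14.2 and 22.5 CPM in sgLmo2, and 29.1, 23.0 and 9.82 CPM in sgZbtb1. In sgCbfa2t2 they held 14.90, 20.04 and 14.97 CPM and in sgCbfa2t3 24.1, 18.3 and 15.5 CPM. No condition stood apart (limma adjusted p = 0.867 to 0.989). The summed Tet reads were highest for sgControl, at 179.5 ± 15.1 CPM, and 157 ± 18.7 CPM for sgLmo2, 147 ± 18.5 CPM for sgZbtb1, 145 ± 5.64 CPM for sgCbfa2t2 and 149 ± 5.11 CPM for sgCbfa2t3 (SD, n = 3), given without a test as this sum was chosen after the values were seen.

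Zbtb1 had 2 peaks listed for Tet1, both inside the gene as GENCODE vM21 draws it. The first (chr10:62895301-62895671, score 46.7) lay at -8162 bp from the start used by the list, in a SINE repeat, and the second (chr10:62863598-62863968, score 26.1) 23541 bp downstream, in intron 3. The centre of the second is shown as the Tet peak with a TGTGGT, in capitals with its GGAA (plus strand, chr10:62863684-62863883).

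Tet1 intron, Zbtb1 peak: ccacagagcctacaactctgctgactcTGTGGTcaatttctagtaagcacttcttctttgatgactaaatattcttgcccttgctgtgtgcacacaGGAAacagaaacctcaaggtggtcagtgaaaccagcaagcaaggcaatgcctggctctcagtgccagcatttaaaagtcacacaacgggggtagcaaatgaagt

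RefSeq promoters (GRCm38.p6, 250 bases before to 50 after a start) were found for all 7 genes, 12 in all. The Tet2 promoter holds 57 CG, more than 99.8% of the 32851 promoters of this length, and the Dnmt3a promoters at the upstream starts hold 46 and 47 CG. TGTGGT was found in 1 of the 12, an upstream Uhrf1 promoter, and in 16.8% of all promoters. Of these 12 windows, 1 of Dnmt3a and 1 of Uhrf1 overlapped a peak, in both cases of Zbtb1. The Tet3 window (chr6:83441629-83441928) is at another start than the one used by the peak list, so it does not cover the Zbtb1 peak at the Tet3 start described above, and the Cbfa2t3 peak listed at the Dnmt3a promoter ends upstream of the Dnmt3a windows.

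Genes that act with these enzymes were described from lists chosen by function, with earlier results of these data known. Of 9 cofactors tested, 1 rose in sgZbtb1, where 1.85% of all genes did. Trim28, a corepressor that keeps methylation at imprinted regions, was at 573, 603 and 583 CPM in sgControl and at 689, 655 and 770 CPM in sgZbtb1, a log2 difference of 0.26 (limma adjusted p = 0.0309). Leaving out any 1 of the 6 libraries but sgZbtb1 replicate 2 ended the call, with adjusted p of 0.0591 to 0.243. Trim28 also lay wholly above sgControl in sgLmo2, sgCbfa2t2 and sgCbfa2t3. The log2 differences there were 0.10, 0.17 and 0.19 and did not pass (limma adjusted p = 0.930, 0.473 and 0.337). Hells, a remodeller needed for methylation, and Pcna, the clamp that recruits Dnmt1 to the fork, had log2 differences of 0.20 and 0.27 in sgZbtb1 (limma adjusted p = 0.323 and 0.166). Of the 20 S phase genes, all tested, none passed in any comparison (lowest limma adjusted p = 0.0876). At an unadjusted p under 0.05, 4, 4 and 3 of them were higher in sgZbtb1, sgCbfa2t2 and sgCbfa2t3, where 7.37%, 4.44% and 4.32% of all genes were higher. In sgLmo2 the count was 0, where 3.18% of all genes were higher, and 0 of the 20 were lower in sgLmo2, sgZbtb1, sgCbfa2t2 or sgCbfa2t3, where 2.48%, 10.2%, 5.12% and 6.27% of all genes were.

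Of 15 demethylation and repair genes tested, 1 fell in sgZbtb1, where 2.94% of all genes did. Cxxc5, a CXXC-domain protein known to bind Tet2, was at 138, 149 and 141 CPM in sgControl and at 111, 90.8 and 80.0 CPM in sgZbtb1, all lower (log2 difference -0.61, limma adjusted p = 0.00107). It was at 135 to 137 CPM on average in the other conditions and did not pass there. Tdg, the glycosylase that excises oxidised methylcytosine, was at 8.13, 7.52 and 7.62 CPM in sgControl and at 19.2, 16.6 and 16.4 CPM in sgLmo2. These did not overlap, but the log2 difference of 1.07 did not pass (limma adjusted p = 0.741). Mbd4, another glycosylase of this route, did not pass either (lowest limma adjusted p = 0.705).

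Of 11 enzymes of 2-oxoglutarate and 2-hydroxyglutarate, 1 rose in sgZbtb1, where 1.85% of all genes did. Idh2, which makes 2-oxoglutarate in mitochondria, was at 174, 152 and 137 CPM in sgControl and at 202, 212 and 199 CPM in sgZbtb1 (log2 difference 0.41, limma adjusted p = 0.0160). Without sgControl replicate 2 or 3 or sgZbtb1 replicate 2 its adjusted p was 0.0601, 0.140 and 0.0769. Idh2 also lay wholly above sgControl in sgLmo2 and sgCbfa2t2 (log2 differences 0.27 and 0.31, limma adjusted p = 0.849 and 0.317). In sgCbfa2t3 Idh2 overlapped sgControl (0.22, limma adjusted p = 0.461). Idh1, its cytosolic relative, did not pass (lowest limma adjusted p = 0.540). None of 9 methyl-CpG readers, 6 binders of unmethylated CpG and 16 genes of the methyl donor cycle passed in any comparison (lowest limma adjusted p = 0.221, 0.0857 and 0.0508).

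Germline genes, which are known to be silenced by promoter methylation in somatic cells, were mostly without reads, as were most genes of the table. Of 16 listed, 13 had no read in any library, beside 66.4% of all 55421 genes, and 1 was abundant enough to test, which did not pass (lowest limma adjusted p = 0.682).

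Imprinted genes, expressed from 1 parental allele under methylated control regions, held the most calls of these lists. Of 9 tested, 4 fell in sgZbtb1, 2 in sgCbfa2t3, 1 in sgCbfa2t2 and none in sgLmo2, beside 2.94%, 0.407%, 0.121% and 0.00866% of all genes. The median log2 fold change of the 9 in sgZbtb1 was -0.70, beside -0.03 for all genes. As the lists were chosen with earlier results of these data known, these counts and medians are a description only. H19, a noncoding RNA, was at 41.2, 72.3 and 54.5 CPM in sgControl, 8.94, 5.26 and 10.3 CPM in sgZbtb1 (log2 difference -2.65, limma adjusted p = 4.12e-12) and 15.5, 13.1 and 27.1 CPM in sgCbfa2t3 (-1.57, adjusted p = 6.21e-05). Both ranges lay below sgControl, whereas sgCbfa2t2 and sgLmo2 overlapped it.

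Kcnq1ot1, a noncoding RNA of the Kcnq1 locus, was at 344, 380 and 409 CPM in sgControl and at 164, 191 and 145 CPM in sgZbtb1 (log2 difference -1.18, limma adjusted p = 3.22e-06). It also fell in sgCbfa2t2 (-0.99, adjusted p = 0.00296) and sgCbfa2t3 (-0.88, adjusted p = 0.00394). Without sgControl replicate 3 both calls were lost at log2 differences of -0.93 and -0.83 (limma adjusted p = 0.0793 and 0.0692). The difference was smaller without sgCbfa2t2 replicate 2, at -0.57 (adjusted p = 0.393), and without sgCbfa2t3 replicate 1, at -0.64 (adjusted p = 0.166). By DESeq2 neither passed (adjusted p = 0.239 and 0.296). Igf2r, a receptor that clears Igf2, fell in sgZbtb1 from 229 to 143 CPM (log2 difference -0.70, limma adjusted p = 1.36e-05). Airn, the antisense RNA overlapping Igf2r, fell from 26.4 to 11.6 CPM (-1.20, limma adjusted p = 0.0157), a call that 4 of 6 single-library omissions ended (adjusted p of up to 0.151). The strand used in counting is not given in the sources used here, so reads of Airn and Igf2r, or of Kcnq1ot1 and Kcnq1, may not have been told apart.

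**Figure D5:**
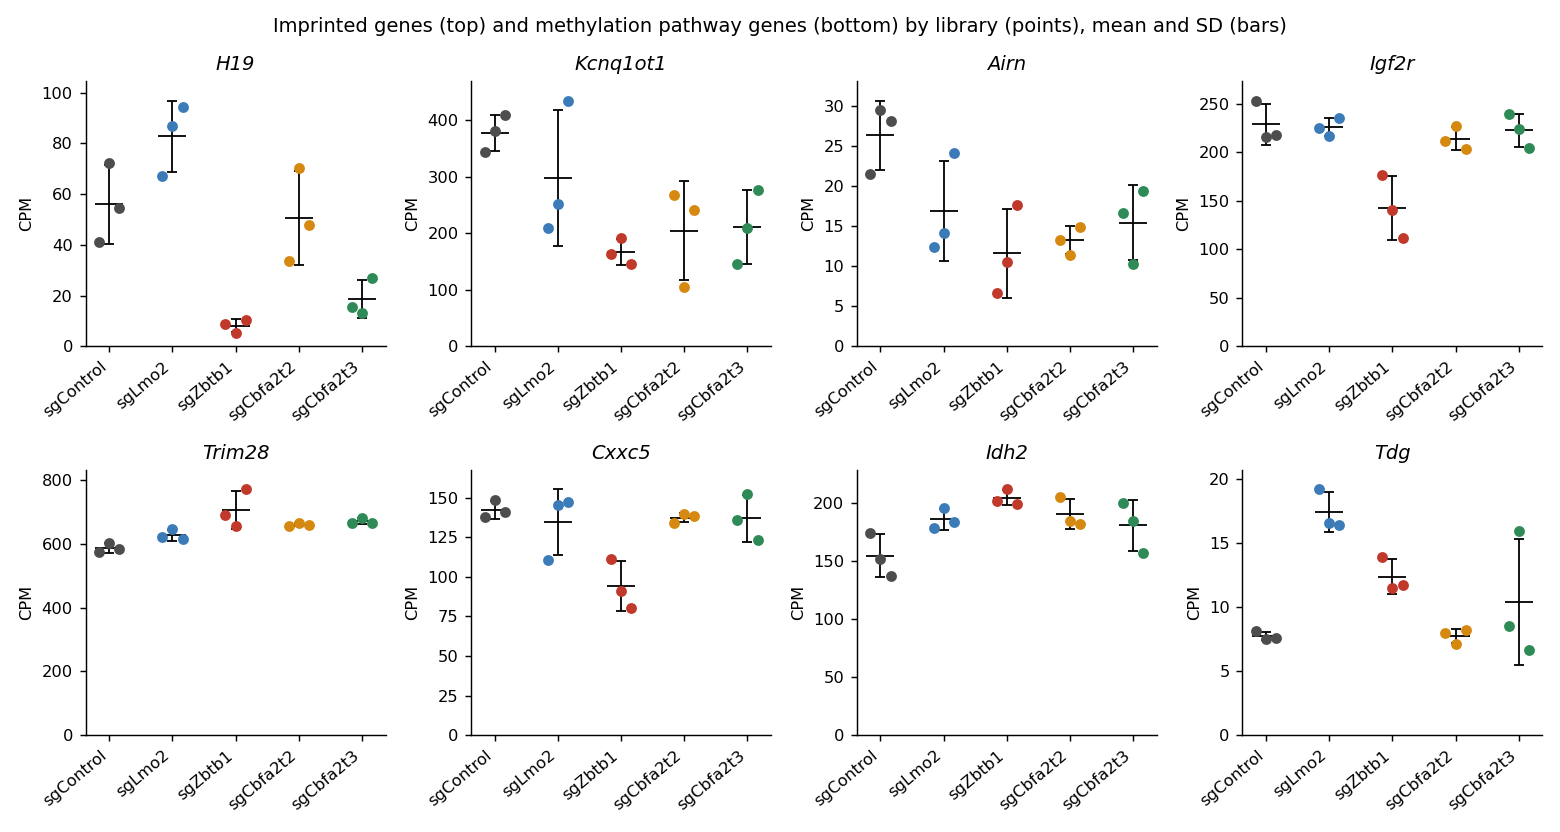
CPM by library of 4 imprinted genes (top) and of Trim28, Cxxc5, Idh2 and Tdg (bottom), with bars for the mean and SD of 3 libraries and axes from 0. The sgZbtb1 points of H19, Kcnq1ot1, Airn, Igf2r and Cxxc5 lie below all sgControl points, and those of Trim28, Idh2 and Tdg above them.

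Markers of cell type also differed between conditions. Summed T cell markers were 134.7 to 156.6 CPM in sgControl, 64.55 to 94.97 CPM in sgZbtb1, 104.5 to 130.9 CPM in sgCbfa2t2, 109.6 to 133.0 CPM in sgCbfa2t3 and 144.7 to 180.8 CPM in sgLmo2. Summed B cell markers, of which Ebf1 gave most reads, were 310.2 to 378.8 CPM in sgControl, 211.3 to 225.4 CPM in sgZbtb1, 254.8 to 272.5 CPM in sgCbfa2t2, 256.9 to 291.9 CPM in sgCbfa2t3 and 259.5 to 332.0 CPM in sgLmo2. Summed progenitor markers were 1889 to 1933 CPM in sgControl, 1692 to 1879 CPM in sgZbtb1, 1835 to 1873 CPM in sgCbfa2t2, 1707 to 1876 CPM in sgCbfa2t3 and 1928 to 2023 CPM in sgLmo2. These 3 sums thus lay wholly below sgControl in sgZbtb1, sgCbfa2t2 and sgCbfa2t3, whereas the myeloid sum overlapped sgControl in every condition. Imprinted genes were called lower in the same conditions, although in sgCbfa2t2 this was 1 gene, Kcnq1ot1. Single genes weigh on such sums, and in sgCbfa2t2 Ly6d averaged 97.1 CPM, against 158 CPM in sgControl. Of 4 T cell and 3 B cell markers tested, 2 and 2 fell in sgZbtb1, where 2.94% of all genes did, and none was called in the other comparisons with sgControl. In sgZbtb1 Bcl11b and Lck were called lower (log2 differences -1.82 and -0.87), as were Ebf1 (-0.62) and Pax5, from 6.79 to 0.810 CPM, under the level of 3 reads. Of 12 progenitor markers, all tested, 3 fell in sgZbtb1, Ly6d (-2.40), Kit (-1.14) and Ptprc (-0.28), and 1 rose, Cd93 (0.52), where 2.94% of all genes fell and 1.85% rose. The other 8 did not pass, among them the cytokine receptors Flt3 and Il7r (lowest limma adjusted p = 0.538 and 0.440). Ly6d was also the 1 of 12 that fell in sgCbfa2t2 (-0.69) and in sgCbfa2t3 (-1.43), where 0.121% and 0.407% of all genes did, and none of the 12 was called in sgLmo2. Calls of Kit and Ptprc in sgZbtb1 and of Ly6d in sgCbfa2t2 were lost without 4, 5 and 4 of the 6 libraries in turn (limma adjusted p of up to 0.148, 0.222 and 0.254), and that of Ptprc also with median-of-ratios size factors (0.0583) and by edgeR (0.0672). The part of these changes in the values above was not tested, and in bulk RNA fewer cells of a type cannot be told apart from less RNA per cell.

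The genes whose levels ran most like each of the 7 over the 15 libraries were found among 7959 protein-coding genes with a mean above 10 CPM, as a description. The libraries share conditions and depth. These r were picked as the highest over only 15 libraries, so they do not show that the genes are linked. Dnmt1 ran most like Ube2g2 (Pearson's r 0.871, Spearman's rho 0.886), Apmap and Fbl. Dnmt3a ran most like Kif16b (0.830 and 0.836), Pnpla8 and Pla2g15, and Dnmt3b most like Bola3 (0.845 and 0.707), Cep78 and Stk10. Uhrf1 ran most like the remodeller Smarca4 (0.815 and 0.836), Tceanc and Ivns1abp. For the Tet genes these were Me2 (0.878 and 0.943), Cks2 and Camsap2 with Tet1, Naa35 (0.868 and 0.832), Prdm2 and Trp53i13 with Tet2, and Tle4 (0.820 and 0.839) and A630089N07Rik with Tet3. Among the 21 pairs of the 7 genes themselves, r ran from -0.358 for Dnmt3a with Dnmt3b to 0.614 for Tet1 with Tet2.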

How the data were processed

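QuantSeq reads were trimmed by the authors with fastp, mapped to mm10 with STAR and scaled to the same total per library. The authors name the unit TPM, but the deposited values are CPM without division by length, and whole reads were recovered for 100% of values (tolerance 0.02 reads, wider for the most abundant genes as the deposited decimals require). ChIP-seq reads were mapped by the authors with Bowtie 1.1.1, who called peaks with HOMER against input and deposited 1 list per factor with a normalized peak score of at least 15.0. Their 18 columns of means, SD, p and fold changes were not used. 1 line without a gene, at most 5.86e-05% of reads, was left out.

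Genes with a mean above 1 CPM were tested with limma 3.58.1 (R 4.3.3, eBayes with trend) on log2(CPM + 1), all 15 libraries in one fit, with Benjamini-Hochberg adjustment over all genes. The plan named TPM and was kept for CPM. Single values were also compared by exact two-sided permutation. Alternatives were a pseudocount of 0.1, other filters, the 6 libraries alone, edgeR 4.0.16, DESeq2 1.42.0, size factors by median of ratios, a block for replicate number and leaving out each library. The steps were tested on simulated data. Replicates, which the methods call biologically independent, were counted as separate samples. They had r of 0.957 to 0.967 across genes, and differed by 2.25 to 3.75 times the sampling noise (chi-square per degree of freedom), so none appeared to be 1 library deposited again.

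The genes named are the 7, the members of the lists with an adjusted p under 0.05 in any comparison with sgControl, Tdg, Hells, Pcna, Uhrf2, Dnmt3l, Mbd4, Idh1 and Idh2 whatever their values, and the 3 genes with the highest r with each of the 7, of which 1 is not reported here. The 7 genes and the lists were chosen with earlier results of these data known. Peaks were read in GRCm38 (mm10) sequence, with gene models from GENCODE vM21.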

Additional observations from a re-analysis of the deposited data

How the results depend on the processing

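The count of the 7 genes called was 0 in the 4 comparisons with sgControl and in the test across the 5 conditions, under each alternative run and without any single library. The other pairs of conditions were not recomputed under alternatives. Over 388 alternative values of the 28 log2 fold changes the lowest adjusted p was 0.0847, for Tet3 in sgZbtb1 without sgControl replicate 2. Some signs turned. Dnmt1 in sgLmo2 was -0.0045 with median-of-ratios size factors and -0.0036 by DESeq2. Tet1 in sgZbtb1 was 0.0125 by edgeR and 0.0117 by DESeq2. Uhrf1 in sgCbfa2t2 was -0.0097, -0.0035 and -0.0154 by median-of-ratios, edgeR and DESeq2, and Dnmt3a in sgCbfa2t3 0.0044, 0.0163 and 0.0083.

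Without single libraries the signs also turned, with ranges in sgLmo2 of -0.0558 to 0.0759 for Dnmt1, -0.0664 to 0.0293 for Dnmt3a, -0.1316 to 0.0838 for Dnmt3b, -0.0577 to 0.0997 for Uhrf1, -0.147 to 0.3805 for Tet1 and -0.5975 to 0.1147 for Lmo2. In sgZbtb1 they were -0.0653 to 0.0921 for Uhrf1 and -0.3762 to 0.3606 for Tet1, in sgCbfa2t2 -0.0807 to 0.0767 for Uhrf1, and in sgCbfa2t3 -0.0607 to 0.0817 for Dnmt3a, -0.1086 to 0.0489 for Uhrf1 and -0.299 to 0.1381 for Tet1. The cause was not tested.

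With all genes above 0 in the fit, which adjusts over more genes, Trim28 (adjusted p = 0.0652), Airn (0.0743), Kit (0.0782) and Ptprc (0.0794) in sgZbtb1, Kcnq1ot1 (0.333) and Ly6d (0.264) in sgCbfa2t2, and Kcnq1ot1 in sgCbfa2t3 (0.313) lost their calls. DESeq2 gave no adjusted p for H19 in sgCbfa2t3.

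The replicate block called 0 of the 7 genes in each of these 5 tests. Deviations from the condition means had a mean r of 0.0279 over 30 pairs with the same number (-0.0072 to 0.0656) and of -0.0139 over 60 with different numbers (-0.0608 to 0.032). No pair exceeded 0.1, the limit set for pairing, and the labels name no shared batch. Nevertheless 14 of 15 libraries had their highest mean r with their own number, a hint from the data that same-numbered libraries share more than the number. Tet3 took its highest share of the Tet CPM in replicate 3 of all 5 conditions (72.7% to 81.7%, beside 63.6% to 75.6% in the other libraries), a measure singled out after its values were seen. Among peaks listed for the 7 genes, 0 of 7 genes had a Cbfa2t3 peak with a score of at least 30, beside 12.8% of all genes. With centres within 100 bp, 0 of these listed peaks were shared. Peaks inside Dnmt3a but listed for Dnmt3aos were not counted, among them the Cbfa2t3 peak of score 104.3 centred 36 bp from a Zbtb1 peak. Counting alone gives Tet1 and Tet2 an SD of 16.2% and 15.2% of the mean, and replicates spread by 34.2% and 21.7%. The results rest on a single line, 3 libraries a condition and peak lists without replicate values.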
